A study of Drosophila melanogaster with 12 samples.

Results

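Adult flies of Drosophila melanogaster with an obese father were compared with flies of the same labelled genotype whose parents were not obese. The comparison holds 6 of the 12 RNA sequencing libraries in the study, 3 labelled Paternal and 3 labelled Het, chosen as the libraries whose read counts fill the authors' table of that contrast. Paternal flies are labelled AKHR +/- with an obese paternal parent, and het flies are labelled AKHR +/- with no parental obesity. The other 6 libraries are 3 Maternal (AKHR +/-, obese maternal parent) and 3 Wildtype (wild-type, no parental obesity), which entered the fit and are given beside a result only where they bear on it. All 12 were made from polyA RNA of whole adult flies aged 10-11 days in the Canton S background. Both groups compared here carry the AKHR mutation in heterozygous form. The labels give neither the kind of mutation nor the sex of the flies, and whether the mutant parent was the mother or the father of het flies is not stated. The design text states 1 set of samples per experimental replicate, with no count of flies or cultures per library in the labels, and the p-values below therefore reflect only how far these libraries vary.

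Adipokinetic hormone (Akh) is a peptide that neurosecretory cells of the fly release into the haemolymph. Its receptor, AkhR, is a G protein-coupled receptor on fat body cells, where its signal acts through cyclic AMP and calcium to release stored triglyceride and glycogen. Flies that lack the receptor are known to store excess fat.

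The 3 paternal libraries held 18901822, 17212029 and 21370713 reads counted in genes, and the 3 het libraries held 18392027, 20082600 and 18130089. After a filter on low counts 12809 genes were tested. Reads may be shared between overlapping genes, which among those named below are CG43630, CG14500, CG43679, CG43778, CG14499, l(2)tid, CG1648, Dpy-30L2, DptB, Mtk, AttC, TotX, CG6271, Pka-R1, Tret1-1, Tret1-2, Pglym78, Lsd-1, whd, Ilp2, Ilp3, InR, E(z) and piwi. Levels are given as CPM, reads scaled to library size, after TMM scaling, and changes as log2 of paternal over het from edgeR's quasi-likelihood fit with the replicate number as a block. Of the defining tissue markers searched for, all 8 each of eye, muscle, accessory gland and midgut were listed. So were all 12 of testis, 5 of 6 each of fat body and brain and 3 of 4 of haemocytes. The 13 testis names searched for held 1 gene under both dj and don juan. Only 3 of 13 ovary and eggshell markers were listed, at a summed level of 3.38 to 3.47 CPM in paternal and 3.00 to 3.29 CPM in het libraries, without overlap. Testis markers summed to 2353 to 2487 CPM in paternal and 2346 to 2517 CPM in het libraries. By these levels the flies were male or nearly all male, although the labels do not state it. Eye markers summed to 9002 to 9188 CPM in paternal and 8908 to 8993 CPM in het libraries, which did not overlap, though by a very small margin. The most abundant eye marker, ninaE, overlapped between the groups. Ranges overlapped for the accessory gland, testis, muscle, midgut, fat body, female fat body, brain and haemocyte markers.

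The receptor gene differed between the groups by less than its error. In the files AkhR is called GRHR (FBgn0025595), at positions 6711286 to 6716186 of chromosome 2L in dm3 coordinates. Its level was 80.8, 73.7 and 80.8 CPM in the paternal libraries and 84.3, 71.6 and 81.1 CPM in the het libraries, and the groups overlapped. The log2 difference was -0.01 (SE 0.0411), with a 95% interval from -0.10 to 0.08. Both groups carry the mutation, so this value does not check the labels.

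A single gene passed the test. CG15572 rose in flies with an obese father by a log2 of 0.41 (SE 0.0428, 95% interval 0.32 to 0.50), a fold of 1.33, with an adjusted p of 0.000163 (edgeR's quasi-likelihood test, adjusted by Benjamini-Hochberg). This was 1 gene higher and 0 lower, which is 0.00781% of the 12809 tested. At an unadjusted p under 0.05 there were 412 genes (3.22%), 187 higher (1.46%) and 225 lower (1.76%). DESeq2 and limma-trend, each with the block, called the same single gene, as did edgeR without the block.

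CG15572 (FBgn0029702) is a protein-coding gene on the X chromosome from 4162734 to 4165116, plus strand, dm3. It carries only an annotation number in the files, and no other gene overlaps it. Its level was 98.8, 93.9 and 94.4 CPM in the paternal libraries, from 1877, 1609 and 2039 reads. In the het libraries it was 72.7, 73.3 and 69.9 CPM, from 1352, 1468 and 1274 reads. All 3 paternal values lay above all 3 het values, with means of 95.7 ± 2.69 CPM in paternal and 72.0 ± 1.84 CPM in het flies (SD, n = 3 each). Within the numbered pairs the log2 difference of paternal minus het was 0.44, 0.36 and 0.43. Per length, the authors' FPKM values averaged 40.3 ± 1.24 in paternal and 30.3 ± 0.740 in het flies (SD, n = 3 each). In RNA of whole flies, a change in the number of cells of a type and one in RNA per cell cannot be told apart.

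The other 2 groups frame these levels. Maternal libraries held 46.4, 43.7 and 42.0 CPM of CG15572, and wildtype libraries held 96.0, 90.5 and 95.1 CPM. The paternal range overlapped that of wildtype, het libraries lay below both, and maternal libraries were the lowest. CG15572 lies on the X, which males receive from their mothers. The labels do not describe the mothers' X, so it cannot be told apart from obesity of the father. Neither was tested. The log2 difference of paternal over wildtype was 0.03 (adjusted p = 0.822 in edgeR, where 206 genes or 1.61% passed), that of het over wildtype was -0.38 (adjusted p = 3.22e-05 in edgeR, where 284 genes or 2.22% passed), and that of maternal over paternal was -1.12 (adjusted p = 1.25e-11 in edgeR, where 3 genes or 0.0234% passed). Without the block these contrasts called 67 (0.523%), 76 (0.593%) and 2 genes (0.0156%). The 5 tested genes within 25000 bases of CG15572, namely CG15576, CG12691, CG15577, CG15578 and CG43134, differed by log2 values of -0.03 to 0.07, and each overlapped between paternal and het libraries.

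**Figure D1:**
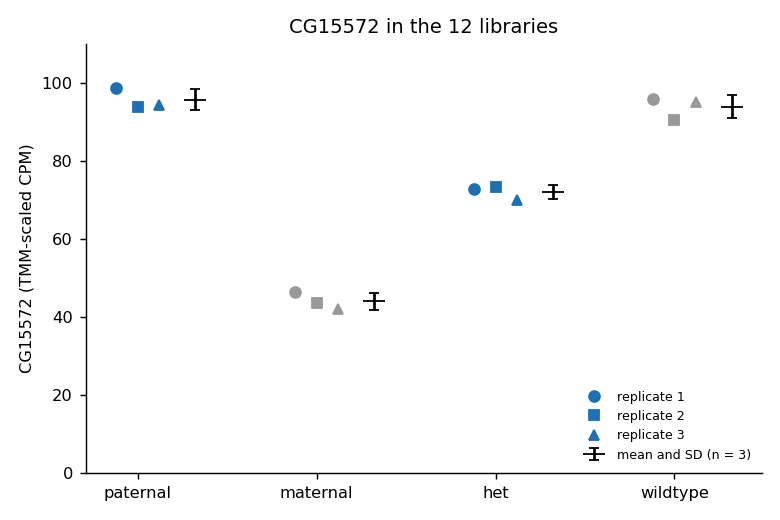
Level of CG15572 in TMM-scaled CPM in the 12 libraries, by group; symbols are libraries by replicate number and bars are the mean and SD of 3. The paternal libraries lie at 93.9 to 98.8 CPM and the het libraries at 69.9 to 73.3 CPM, with the maternal libraries below both.

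The call held in each alternative tried, with log2 values of 0.39 to 0.44 and adjusted p of at most 0.0122. The authors' deposited table gives CG15572 a log2 change of 0.28 and a score that corresponds to an adjusted p of 5.16e-08. Over all its genes the deposited log2 changes run only from -0.14 to 0.28, where the fit here ran from -1.09 to 0.91. The ranges are therefore unlike. How the deposited log2 changes were scaled was not tested, so the size of 0.28 cannot be compared with that of the fit here. By that adjusted p it was the single gene called in the authors' deposited table as well, 0.00772% of 12956.

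With only these 6 libraries in the fit and the block kept, 17 genes passed (0.133%), 8 higher (0.0625%) and 9 lower (0.0703%). Besides CG15572, those higher were l(2)tid (a DnaJ-type chaperone), scu (a mitochondrial hydroxyacyl-CoA dehydrogenase), RpL24 (a ribosomal protein), TotA (a secreted stress peptide), CG9498, CG1648 and CG14688. Those lower were mt:CoI and mt:CoII (subunits of cytochrome c oxidase), the accessory gland genes Acp53Ea and Acp54A1, RpS27 (a ribosomal protein), the cuticle gene Cpr67Fb, Dpy-30L2, CG34034 and CG42852. Their absolute log2 changes, CG15572 apart, lay between 0.12 and 0.22 in that fit. None of these 16 passed with 12 libraries, and they are described by values only.

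Few genes differed much in either direction. The median standard error of a log2 change was 0.0682, and for 12513 genes (97.7%) the 95% interval lay within a log2 of -1 to 1. For 11376 genes (88.8%) it lay within -0.5 to 0.5. Among the 2145 genes with a mean of at least 100 CPM the median absolute log2 difference was 0.02, and 0 of them differed by more than 0.5. CG14499, chosen after its values were seen, had 8.11, 59.8 and 5.60 CPM in paternal and 10.0, 25.4 and 3.84 CPM in het libraries, so replicate 2 stood high in both groups and the log2 of 0.75 had a standard error of 0.920. Over all tested genes 111 differed by a log2 of more than 0.5, of which 77 had a mean under 1 CPM. The 3 paternal values lay wholly above the 3 het values in 548 genes (4.28%) and wholly below in 552 (4.31%), 8.59% of those tested together.

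**Figure D2:**
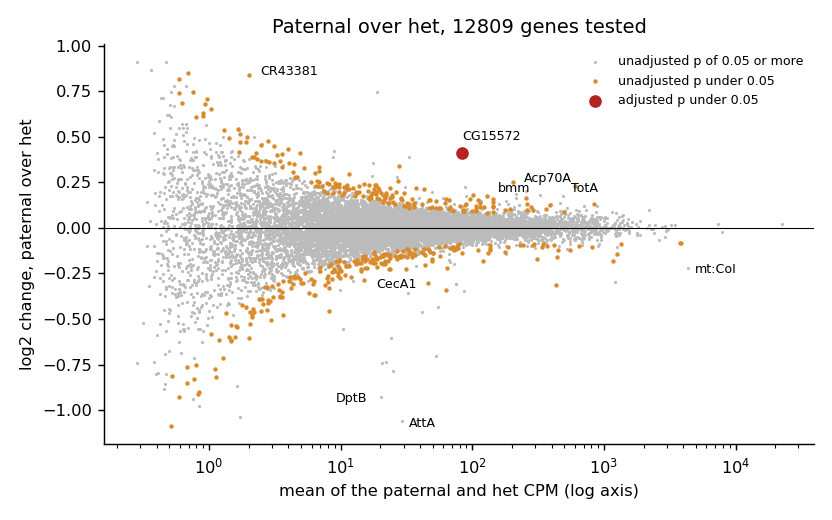
Log2 change of paternal over het against the mean CPM of both groups (log axis), 1 point per gene tested. CG15572 is the single gene with an adjusted p under 0.05, and AttA and DptB, antimicrobial peptide genes, lie among the lowest points at log2 values of -1.06 and -0.93 without passing.

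The genes ranked next by unadjusted p did not pass, each with an adjusted p of 1.00 in edgeR, and are given as values. On the higher side, CR43381, a gene whose name marks it as non-coding, had 2.42, 2.33 and 2.96 CPM in paternal and 1.83, 1.20 and 1.32 CPM in het libraries (log2 0.84, SE 0.203). These groups did not overlap, although the level is low. CG11374 had 4.84, 4.61 and 4.17 CPM in paternal and 3.34, 3.25 and 3.51 CPM in het libraries (log2 0.43, SE 0.133), again without overlap. ACXD, an adenylyl cyclase, had 29.2, 27.3 and 27.1 CPM in paternal and 25.8, 21.8 and 25.2 CPM in het libraries (log2 0.20). Bj1, the fly homologue of the Ran exchange factor RCC1, differed by a log2 of 0.15, with pair differences of 0.17, 0.14 and 0.15. The other 4 on this side were CG43630, CG14500, CG15065 and CG9701, at log2 values of 0.16 to 0.34.

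On the lower side, CG34034 had 298, 302 and 279 CPM in paternal and 332, 336 and 320 CPM in het libraries (log2 -0.17, SE 0.0403). Cpr67Fb, a structural protein of the cuticle, had 62.2, 58.1 and 59.1 CPM in paternal and 67.4, 70.1 and 70.7 CPM in het libraries (log2 -0.22, SE 0.0531). In both genes every paternal value lay below every het value. CG8866, named Aduk in current annotation and a kinase related to Unc-51, had 13.3, 13.7 and 13.6 CPM in paternal and 16.7, 15.9 and 16.8 CPM in het libraries (log2 -0.29). CG4269 differed by a log2 of -0.45, with pair differences of -0.60, -0.33 and -0.37. The other 4 were mt:CoII, CecA1, CG43679 and CG43778, at -0.18 to -0.30.

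**Figure D3:**
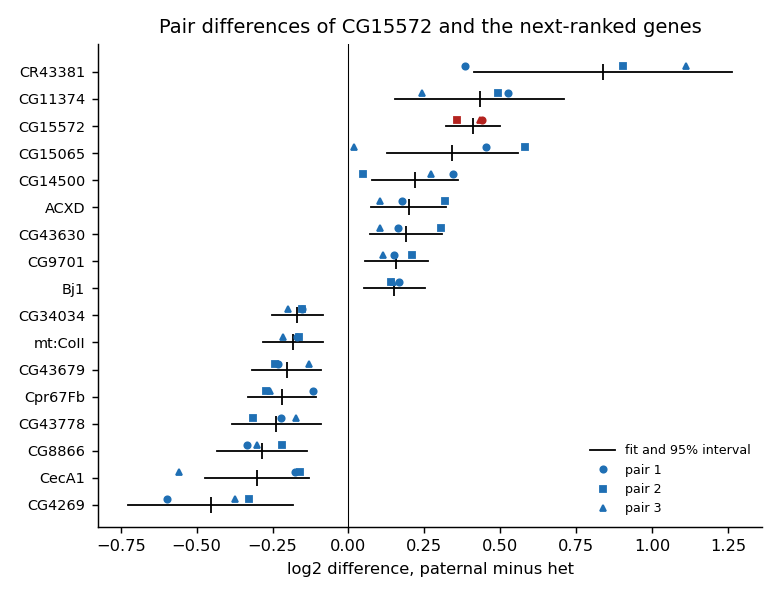
Log2 difference of paternal minus het for CG15572 (red) and the 16 next-ranked genes; the bar is the fitted change with its 95% interval and the symbols are the 3 numbered pairs. All 3 pairs of each gene lie on 1 side of 0, and the genes were chosen for their small p, so this is a description.

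Genes of the Akh pathway were examined as a list of 21, from hormone and receptor to lipid droplet. None passed in edgeR with or without the block, DESeq2 or limma-trend. The median log2 change was 0.02 beside 0.00 over all genes tested, with 11 positive and 10 negative. In 1 gene the unadjusted p was under 0.05 (4.76%, beside 3.22% of all genes). All 21 intervals lay within a log2 of -0.5 to 0.5.

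The hormone gene Akh had 11.8, 13.6 and 11.9 CPM in paternal and 14.6, 13.9 and 13.2 CPM in het libraries, a log2 difference of -0.16 (SE 0.0806) with overlapping groups. Brummer (bmm), the fly triglyceride lipase of the lipid droplet, had 148, 158 and 146 CPM in paternal and 128, 135 and 144 CPM in het libraries. Every paternal value of bmm lay above every het value, though by a small margin over het replicate 3, at a log2 of 0.16 (SE 0.0558). Its adjusted p was 1.00 in edgeR, and 0.0763 with the 6 libraries alone. Lsd-1, the perilipin that coats droplets and gates lipolysis, differed by 0.10 and overlapped between groups. Among the signal relays, the protein kinase A subunit genes Pka-C1, Pka-R1 and Pka-R2 differed by 0.03, 0.05 and 0.02, and the transcription factor foxo by -0.02.

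Genes for the synthesis and breakdown of fat had 0 members past the threshold. Of 28 genes of fatty acid and triglyceride synthesis 0 passed, with a median log2 of 0.01 and 19 positive, beside 6437 of all 12809. CG1942, which encodes the diacylglycerol acyltransferase Dgat2, had 3.00, 2.86 and 3.47 CPM in paternal and 3.82, 4.04 and 4.39 CPM in het libraries, a log2 difference of -0.38 (SE 0.144) without overlap. The abundant fatty acid synthase gene CG3523 had 2111, 2527 and 2133 CPM in paternal and 2037, 2260 and 2023 CPM in het libraries, with overlapping groups at a log2 of 0.10. The stearoyl-CoA desaturase gene desat1 and the acetyl-CoA carboxylase gene ACC differed by 0.00 each.

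Of 28 genes of fatty acid beta-oxidation 0 passed, with a median of 0.01. CG7834, which encodes a subunit of the electron transfer flavoprotein, had 216.1, 211.6 and 216.7 CPM in paternal and 194.7, 196.6 and 204.98 CPM in het libraries (log2 0.11), without overlap. In whd, the carnitine palmitoyltransferase gene, groups overlapped at a log2 of -0.02. Of 17 genes for lipoproteins and lipid transport 0 passed, with a median of 0.00. NLaz, a lipocalin secreted by fat body, had 128, 135 and 129 CPM in paternal and 137, 146 and 144 CPM in het libraries, a log2 difference of -0.12 (SE 0.0432) without overlap. Of 26 lipase genes 0 passed and 19 were negative, beside 6372 of all 12809. The lipase median was -0.04, over a range from -0.32 to 0.54. The highest, CG6271, had 1.58, 1.52 and 1.53 CPM in paternal and 0.807, 0.899 and 1.48 CPM in het libraries, a low level without overlap, at a log2 of 0.54 (95% interval 0.02 to 1.05). CG7329 had 18.8, 18.5 and 18.8 CPM in paternal and 19.9, 22.6 and 20.2 CPM in het libraries, also without overlap (log2 -0.16).

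Most genes of glycolysis and of trehalose and glycogen metabolism had small positive differences, and none passed. Of 17 genes of glycolysis and lactate 0 passed, 14 had a positive log2 change, and the median was 0.05, beside 6437 positive of 12809 genes tested. Tpi, triosephosphate isomerase, had 374, 362 and 382 CPM in paternal and 345, 342 and 354 CPM in het libraries, a log2 of 0.10 (SE 0.0446) without overlap. Pglym78, a phosphoglycerate mutase, likewise did not overlap, at a log2 of 0.10. The changes in the list ran from -0.04 to 0.10, so all were small. Of 17 genes for trehalose, glycogen and gluconeogenesis 0 passed, 14 were positive, and the median was 0.04. The trehalose transporter gene Tret1-2 had 12.9, 12.4 and 12.7 CPM in paternal and 10.5, 9.98 and 10.5 CPM in het libraries, a log2 of 0.30 (SE 0.0951) without overlap. Its neighbour Tret1-1 had 488, 538 and 515 CPM in paternal and 459, 504 and 484 CPM in het libraries (log2 0.09), with overlap. Both of these genes overlap Roc2, so their reads may be shared. Of 14 amylase and maltase genes, which digest starch and sugars, 0 passed, with 7 positive, 7 negative and a median of 0.00.

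Of 26 genes of insulin and TOR signalling 0 passed, and 0 had an unadjusted p under 0.05. The median log2 was 0.00. Ilp2, an insulin-like peptide of the brain, had 10.3, 10.3 and 10.4 CPM in paternal and 9.85, 10.6 and 10.5 CPM in het libraries. Ilp3 had 2.05, 2.16 and 2.04 CPM in paternal and 1.56, 1.80 and 1.81 CPM in het libraries (log2 0.27, SE 0.181), a low level without overlap. The insulin receptor gene InR and the kinase gene Akt1 differed by 0.07 and 0.00. Among 42 genes for Polycomb, heterochromatin and small RNA pathways, which act in chromatin silencing, 0 passed and 0 had an unadjusted p under 0.05. Their median was 0.00, and E(z), a histone methyltransferase, and piwi, a small RNA binding protein, differed by 0.05 and -0.08.

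**Figure D4:**
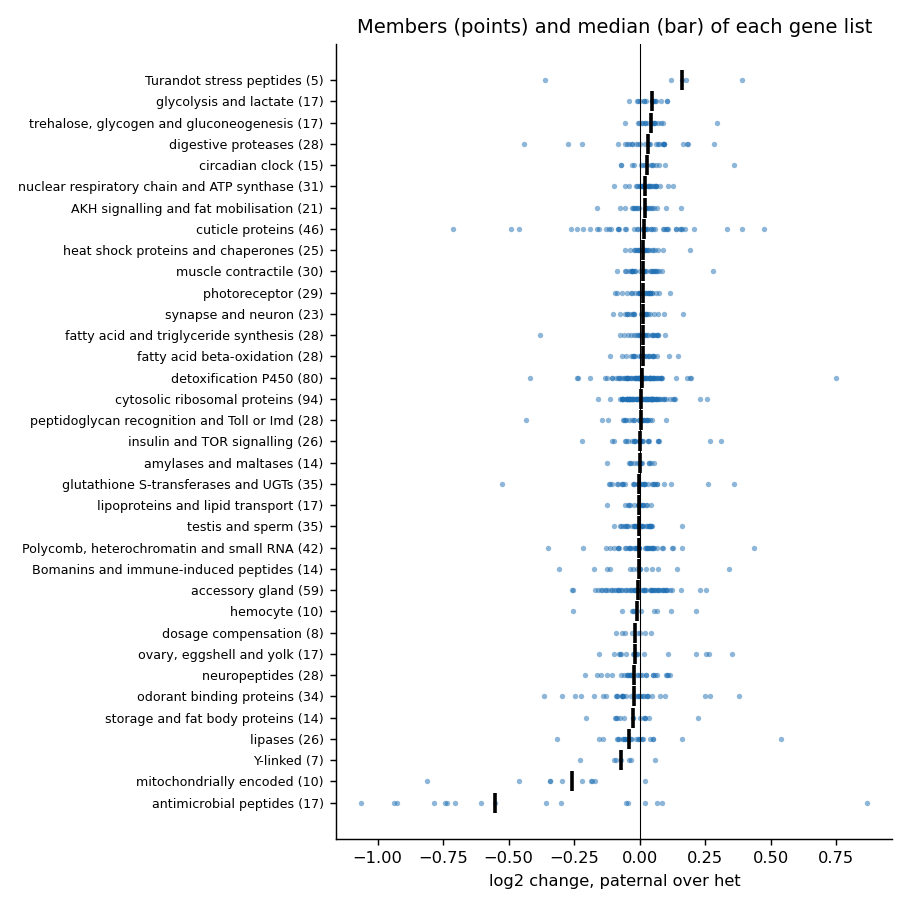
Log2 change of paternal over het for the members (points) and the median (bar) of each of the 35 gene lists, ordered by median, with the number of genes tested in parentheses. Most medians lie close to 0, and those of the antimicrobial peptide and mitochondrially encoded lists lie lowest, at -0.55 and -0.26.

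Antimicrobial peptide genes, which the fat body induces through the Toll and Imd pathways, had the lowest median of the 35 lists, and most of that difference lay in 1 pair of libraries. Of 17 tested 0 passed in edgeR, DESeq2 or limma-trend, with a median log2 of -0.55. The log2 change was negative in 13, beside 6372 of all 12809 genes. In 1 the unadjusted p was under 0.05 (5.88%, beside 3.22% of all genes). AttA (an attacin) had 36.8, 14.7 and 6.85 CPM in paternal and 39.0, 23.9 and 53.5 CPM in het libraries. Paternal replicate 3 was the lowest and het replicate 3 the highest of the 6, and pair differences were -0.08, -0.70 and -2.95. DptB (a diptericin) had 22.5, 11.9 and 6.95 CPM in paternal and 25.6, 16.2 and 39.0 CPM in het libraries, with the same libraries at the ends. Over the list, the medians of pairs 1, 2 and 3 were -0.04, -0.02 and -1.09.

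The median of that list was 0.02 without paternal replicate 3 and ran from -0.89 to -0.35 without each of the other 5 libraries in turn, and it was -0.27 in DESeq2. CecA1 (a cecropin) was less variable, at 47.1, 40.3 and 37.6 CPM in paternal and 53.2, 45.0 and 55.4 CPM in het libraries (log2 -0.30, SE 0.0801), and the groups still overlapped. The drosomycin-like genes dro4 and dro5 had log2 values of 0.06 and 0.08, and both overlapped. Of 14 Bomanins and other immune-induced peptides 0 passed, with a median of 0.00. CG15065 (the Bomanin BomS5) had 32.8, 29.6 and 29.6 CPM in paternal and 23.9, 19.8 and 29.2 CPM in het libraries, a log2 of 0.34. Its pair differences were 0.45, 0.58 and 0.02, so pair 3 was level. Of 28 recognition and Toll or Imd genes 0 passed, with a median of 0.00.

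The share of mitochondrially encoded reads was lower in the paternal library of every pair. These genes encode core subunits of the respiratory chain, and their reads made up 0.631%, 0.700% and 0.599% of the paternal libraries and 0.709%, 0.874% and 0.688% of the het libraries. Het replicate 2 was the highest, and paternal replicate 2 lay above het replicate 3, so the groups overlapped. Of 10 genes tested 0 passed and 9 were negative, beside 6372 negative of all 12809. In 2 of the 10 the unadjusted p was under 0.05 (20%, beside 3.22% of all genes). The median log2 was -0.26, and it was -0.13 without het replicate 2. The pair medians were -0.14, -0.48 and -0.21.

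The subunit gene mt:CoII had 1117, 1207 and 996 CPM in paternal and 1255, 1351 and 1156 CPM in het libraries, with pair differences of -0.17, -0.16 and -0.21 and a fitted log2 of -0.18 (SE 0.0470). Its edgeR adjusted p was 1.00 with 12 libraries and 0.000157 with the 6 alone, with the block in both. For mt:CoI, at 3921, 4338 and 3794 CPM in paternal and 4428, 5249 and 4384 CPM in het libraries, the groups did not overlap and the log2 was -0.22 (SE 0.128). With 12 libraries mt:CoI did not pass, and its unadjusted p in edgeR was 0.131. The adjusted p of mt:CoI was 7.78e-06 in edgeR with the 6 libraries alone. Wildtype libraries held 4868, 4898 and 3800 CPM of mt:CoI, a range that overlapped those of both groups. The 31 nuclear genes for the respiratory chain and ATP synthase had a median of 0.02 with 24 positive, and 0 of them passed. Of all 12809 genes tested 6437 were positive.

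**Figure D5:**
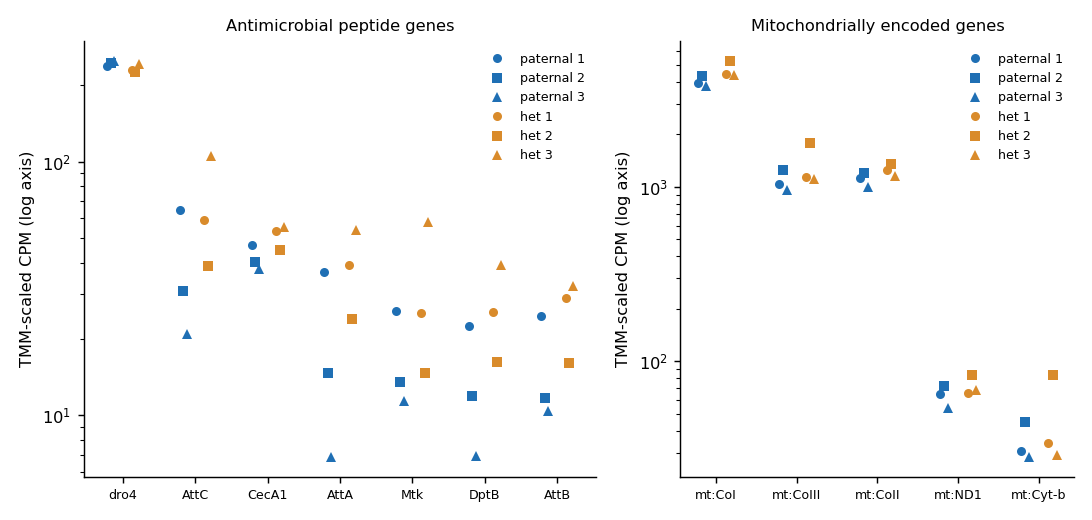
TMM-scaled CPM (log axis) of 7 antimicrobial peptide genes and 5 mitochondrially encoded genes in each paternal and het library; colours mark groups and symbols the replicate number. The wide gaps in AttA, Mtk, DptB and AttC lie between paternal replicate 3 and het replicate 3, and mt:CoI and mt:CoII are lower in paternal flies in every pair by a small amount.

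The lists for male and female reproductive tissue had 0 members past the threshold. Of 59 accessory gland genes, whose products enter the seminal fluid, 0 passed and 9 had an unadjusted p under 0.05 (15.3%, beside 3.22% of all genes), 3 higher and 6 lower, around a median of -0.01. The sex peptide gene Acp70A had 220, 215 and 231 CPM in paternal and 166, 169 and 225 CPM in het libraries. Het replicate 3 overlapped the paternal values, and without it Acp70A passed at a log2 of 0.42 (edgeR adjusted p = 0.00925), against 0.25 with it. Acp54A1 had 1148, 1261 and 1183 CPM in paternal and 1246, 1394 and 1328 CPM in het libraries (log2 -0.14), with overlap. Of 35 testis and sperm genes 0 passed, with a median of 0.00, and of 17 ovary, eggshell and yolk genes 0 passed, with a median of -0.02. The 7 Y-linked genes had a median of -0.07 with 6 negative, beside 6372 of all 12809, and 0 passed. Their summed level was 49.8 to 51.8 CPM in paternal and 50.8 to 54.5 CPM in het libraries, which overlapped.

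Stress, cuticle and translation genes also had 0 members past the threshold. The 5 Turandot genes, secreted peptides of the stress response, had a median of 0.16, and TotA had 435, 556 and 575 CPM in paternal and 349, 512 and 525 CPM in het libraries. Replicate 1 was the lowest library in each group, the groups overlapped, and the median ran from -0.06 without het replicate 1 to 0.35 without het replicate 3. Of 25 heat shock and chaperone genes 0 passed, with a median of 0.01. Of 94 cytosolic ribosomal protein genes 0 passed and 4 had an unadjusted p under 0.05 (4.26%, beside 3.22% of all genes). Their median was 0.01. RpS27 had 415, 432 and 391 CPM in paternal and 483, 474 and 425 CPM in het libraries (log2 -0.16), with overlap. Of 46 cuticle genes 0 passed and 4 had an unadjusted p under 0.05 (8.70%), with a median of 0.02. Among 80 P450 genes 0 passed and 2 had an unadjusted p under 0.05 (2.5%), with a median of 0.01. The 29 photoreceptor genes had a median of 0.01, and 0 passed. The eye markers above summed higher in paternal libraries by a very small margin. The other 10 lists, among them neuropeptides, muscle, odorant binding proteins, digestive proteases and circadian clock genes, also had 0 members past the threshold, with medians of -0.03 to 0.03.

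Median changes were near 0 on every chromosome arm. Median log2 changes were 0.01 on X, 0.00 on each of 2L, 2R, 3L and 3R, and -0.01 on chromosome 4. On 2L, which bears AkhR, 89 of 2454 genes (3.63%) had an unadjusted p under 0.05, beside 3.22% of all genes. Between maternal and wildtype flies 227 genes were called (1.77% of those tested, and 44 or 0.344% without the block). Of these 227, 1 was called between paternal and het flies, CG15572, beside 1 of all 12809. Neither paternal nor het libraries are compared in that contrast, but its error and block terms come from the same fit on all 12 libraries. In 11 of the 227 (4.85%) the unadjusted p of paternal over het was under 0.05, beside 3.22% of all genes. These were 9 of the 122 lower in maternal than in wildtype flies (7.38%) and 2 of the 105 higher (1.90%). Paternal and het libraries did not overlap in 26 of the 227, beside 1100 of all 12809. The median log2 of paternal over het in those 227 was 0.00. For example, CG9505 on 2L had 10.7, 13.5 and 10.9 CPM in paternal and 11.3, 10.4 and 11.0 CPM in het libraries, and CG15818 had 11.53, 14.18 and 11.48 CPM in paternal and 14.04, 12.03 and 12.01 CPM in het libraries. Both genes overlapped between the groups.

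The authors' deposited table also lists, for 71 genes, the exon with the most altered usage. By the adjusted p read from its score, 1 exon passed 0.05, in CG4729, named Agpat3 in current annotation, an acyltransferase of glycerolipid synthesis. That exon, on 3L from 16378920 to 16379057 in dm3, had a log2 of -1.03 and an adjusted p of 0.0320 in the authors' deposited table, lower in paternal flies. The scale of the exon score was taken to be that of the gene score and was not tested. At the level of the gene, CG4729 had 205.2, 200.1 and 205.3 CPM in paternal and 204.2, 201.6 and 201.7 CPM in het libraries, a log2 of 0.01.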

How the data were processed

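PolyA RNA of whole flies was sequenced. Per the submitters' processing notes the tools were Novoalign and DESeq and the build dm3; their versions, the gene annotation and whether counting used strand are not stated there or in the labels. The authors deposited 5 tables, whose counts per gene and FPKM values are per library, per the file headers. The tables also hold the authors' log2 fold changes of genes and exons and a score for each adjusted p. The score was read as 10 times minus log10 of the adjusted p after a comparison with DESeq2 in 2 genes of this contrast, where the ratio lay between 0.996 and 1.00.

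Counts of a library repeated across tables were joined, with 0 disagreements. Of 13040 genes 12982 were counted in every library, which leaves out 58. Current names were matched for 12473 IDs, and 5302 genes overlap another. Genes were kept by filterByExpr (minimum count 10, minimum total 15). edgeR 4.0.16 in R 4.3.3 fitted all 12 libraries with TMM, 4 group terms, the replicate number as a block and a robust quasi-likelihood test, with Benjamini-Hochberg adjustment over 12809 genes at 0.05. The biological coefficient of variation was 0.0449. DESeq2 1.42.0 and limma-trend 3.58.1 were alternatives, with others on scaling, filter, block, libraries in the fit and each library left out.

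The pairing was taken from the replicate numbers in the titles and the design text. Deviations from the group means correlated at 0.214 to 0.273 across genes between paternal and het libraries of the same number (3 of 3 pairs over 0.1). Between paternal and het libraries of different numbers they correlated at -0.22 to -0.02. Deviations cancel out within a group, so these negative values follow in part from the positive ones. Over all 4 groups the same-number pairs were less alike, at -0.0251 to 0.273 with a mean of 0.156, and 11 of 18 were over 0.1.

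The 35 lists and the genes compared were chosen with earlier results of these data known. Genes named were those past the threshold, the next 8 by p in each direction with a mean of at least 1 CPM, AkhR, CG15572 and the 2 smallest p of a list; other genes named were chosen after their values were seen.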

Additional observations from a re-analysis of the deposited data

Results flagged for a closer look

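The level of CG15572 differed between the groups with 1 obese parent. Its log2 change of maternal over paternal was -1.12 (edgeR adjusted p = 1.25e-11), with 46.4, 43.7 and 42.0 CPM in maternal and 98.8, 93.9 and 94.4 CPM in paternal libraries. Against the shared het libraries it was higher in paternal flies by 0.41 and lower in maternal flies, at -0.71. Here too the mothers' X cannot be told apart from parental obesity, and neither was tested.

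The level of mt:CoII also differed between these groups, with a log2 change of maternal over paternal of 0.35 (edgeR adjusted p = 0.00196). Against the shared het libraries it was -0.18 in paternal and 0.17 in maternal flies, and neither of these passed. Maternal libraries held 1536, 1415 and 1288 CPM of mt:CoII and paternal libraries 1117, 1207 and 996 CPM. Wildtype libraries, at 1287, 1434 and 1090 CPM, overlapped both ranges. The number of genes called between maternal and paternal flies was 3 (0.0234%), and it was 2 without the replicate block.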

How the results depend on the processing

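CG15572 was called in each of the 16 alternatives, with a log2 of 0.39 to 0.44 and an adjusted p from 2.41e-08 to 0.0122. The count of genes called was 1 in every alternative except the fit on the 6 libraries with the replicate block, where it was 17, and the fits that left out 1 library, where it was 1 to 2, with Acp70A added without het replicate 3. With no replicate block the count stayed at 1 and CG15572 had a log2 of 0.41 and an adjusted p of 0.00167. Against wildtype the count with no replicate block was 67 for paternal flies, where it was 206 with the block, and 76 for het flies, where it was 284. Named genes that had not passed changed sign without 1 library in 7 cases. Over the fits without 1 library each, GRHR ran from -0.0337 to 0.0116 (positive without paternal replicate 1, at 0.00699, and without het replicate 1), Npc1b from -0.0976 to 0.0111 (positive without paternal replicate 3), CG9465 from -0.367 to 0.0181 and CG9466 from -0.163 to 0.0408 (both positive without paternal replicate 2), TotX from -0.00252 to 0.216 and TotA from -0.0624 to 0.352 (both negative without het replicate 1). The cause of these changes was not tested. Of the other values of named genes, lists and arms under alternatives, 2130 kept direction and side, 38 medians moved by more than the spread of the pairs and 17 genes passed that had not. The median over all genes moved by less than 0.1 under every scaling. Genes under 1 CPM had few reads, and their median standard error was 0.344, against 0.0423 from 100 CPM up.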
